A study of Mus musculus with 12 samples.

Results

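Cdh12 (ENSMUSG00000040452) was followed together with 9 other genes of the type II cadherin family, Cdh6, Cdh7, Cdh8, Cdh9, Cdh10, Cdh11, Cdh18, Cdh19 and Cdh20, in RNA from mouse gonocytes, the male germ cells of the newborn testis. The 10 genes were chosen by symbol among the 35666 genes of the table, with their difference between the genotypes already known. For Cdh12, all 245 transposable element (TE) copies listed from 50.3 kb before the gene to 50.5 kb after it on chromosome 15 (GRCm38), of 298593 listed copies, were examined as well. The cells came from testes at postnatal day 0 (P0), and the genotypes were Morc1 (+/-), called het, and Morc1 (-/-), called KO, with 3 libraries each. Both groups carried the Mvh-Venus transgene, a fluorescent reporter driven from the germ cell gene Mvh, and the het cells that served as controls already carried 1 mutant Morc1 allele. Morc1 encodes a germ cell ATPase needed to silence TEs in the male germ line. The labels name a Morc1 (-/-) genotype without a Cre driver, and do not say whether animals were pooled or whether the 3 libraries of a group came from separate animals, so the errors below may be in part technical.

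Cadherins are membrane proteins that hold cells together through calcium-dependent contacts between their outer domains, while their tails bind catenins that link them to the actin cytoskeleton. Type II cadherins differ from the classical type I cadherins in the strand of the first outer domain that is swapped between facing molecules, which carries a pair of tryptophans instead of a single tryptophan. Most type II cadherins are known from neurons, mesenchyme or neural crest derivatives, where combinations of them sort cells and axons. In the testis the best known cadherins are of type I: Cdh1 (E-cadherin) marks gonocytes and early spermatogonia, and Cdh2 (N-cadherin) is found on Sertoli and germ cells.

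The stretch of coding sequence around this tryptophan pair is shown for the 10 genes because it is the feature that places them in a single subfamily. It was read from the GENCODE M21 coding sequences, 5′ to 3′, and the capitals mark the in-frame codons of the pattern TGGNNNTGG, where TGG codes for tryptophan.
Cdh12: cgtggcTGGgtaTGGaatcagttttttgtg
Cdh6: aggagtTGGatgTGGaatcagttcttcctc
Cdh7: cgcagcTGGgttTGGaatcagttcttcgtg
Cdh8: agaggcTGGgttTGGaatcaaatgtttgtc
Cdh9: cgtggcTGGatgTGGaatcagttcttcctc
Cdh10: cgtggcTGGatgTGGaatcagtttttcttg
Cdh11: agaggcTGGgtcTGGaaccaattctttgtg
Cdh18: aggggaTGGgtaTGGaaccagttctttgtt
Cdh19: cgtgccTGGgtgTGGagaccatttgttgtt
Cdh20: aggagcTGGgttTGGaatcagttttttgtc
The pattern occurred in frame in all 10 genes and in 3 of 3 other type II cadherins (Cdh5, Cdh22 and Cdh24), and in 0 of 5 type I cadherins. In Cdh12 the tryptophan codons were codons 56 and 58. Over the whole coding sequence, Cdh12 was most similar to Cdh10 (64.1% identity) and Cdh6 (63.9%), and least similar to Cdh19 (55.8%). Over all annotated transcripts, with their non-coding parts, the longest run of identical bases that Cdh12 shared with another of the 10 genes was 30 bp, with Cdh7 and with Cdh20.

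The gene table held 28363683 to 32816861 reads per library, and 1974504 to 3703419 reads per library fell on TE copies. Morc1 had 7248, 7485 and 4126 normalized counts in het libraries 1 to 3 and 1360, 1343 and 1794 in KO libraries 1 to 3 (limma log2 difference -2.03, SE 0.27, adjusted p 0.0109), in the direction of the labels. Its difference was between -2.31 and -1.88 in 16 alternatives, and the call was lost in 5 of them (edgeR with the replicate block, limma without trend, and without KO library 1, KO library 3 or het library 1). The germ cell markers were present in every library, with Ddx4, the gene also known as Mvh, between 17605 and 31038 normalized counts and Dazl between 48158 and 72571. Markers of other testis cells were also detected. The summed Sertoli cell markers were 17536 to 37259 in het and 12581 to 18099 in KO, with 7 of 7 negative log2 differences. The summed Leydig cell markers were 776 to 24921 in het, with the highest value in het library 3, and 510 to 1075 in KO. No marker in the lists for germ, Sertoli, Leydig, stromal, endothelial, blood or nerve cells was called with limma, and 3 Sertoli cell markers and 1 endothelial marker had an unadjusted p under 0.05. Over the 26005 genes with a mean of at least 10 normalized counts, 1783 had an unadjusted limma p under 0.05. Of the log2 differences of these 26005 genes, 48.4% were positive. The part of other cells in the results below was not tested.

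Cdh12, a cadherin studied mainly in the brain, was low in het gonocytes and abundant in KO gonocytes. It had 34.3, 42.5 and 18.5 normalized counts in het libraries 1 to 3, from 36, 44 and 19 reads. In KO libraries 1 to 3 it had 667, 1079 and 1104 normalized counts, from 674, 1044 and 1127 reads. All KO libraries lay far above all het libraries, and the lowest KO value was in library 1. The means were 31.8 ± 12.2 and 950 ± 245 (SD, n = 3), a ratio of 29.9. On the scale of log2(normalized count + 1), which understates the change of low genes, the limma difference was 4.90 (SE 0.38). In bulk RNA such as this, more cells with Cdh12 RNA and more of it per cell cannot be told apart. Cdh12 was the only gene among the 10 that was called higher in KO, at a limma adjusted p under 0.05 with Benjamini-Hochberg adjustment over all genes tested, and 0 were called lower with limma, edgeR or DESeq2. Over the 26005 genes with a mean of at least 10 normalized counts, which include all 10 cadherins, 0.431% were called higher and 0.0423% lower. Since the genes were chosen on this contrast, nothing is read from their share. Among the 112 genes called higher, Cdh12 ranked 29 by log2 difference and 21 by KO mean, and among the 67 of them that are protein-coding it ranked 12 and 18. Its het mean stood at percentile 22.9 of the het means of all tested genes, and its KO mean at percentile 73.3 of the KO means.

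**Figure D1:**
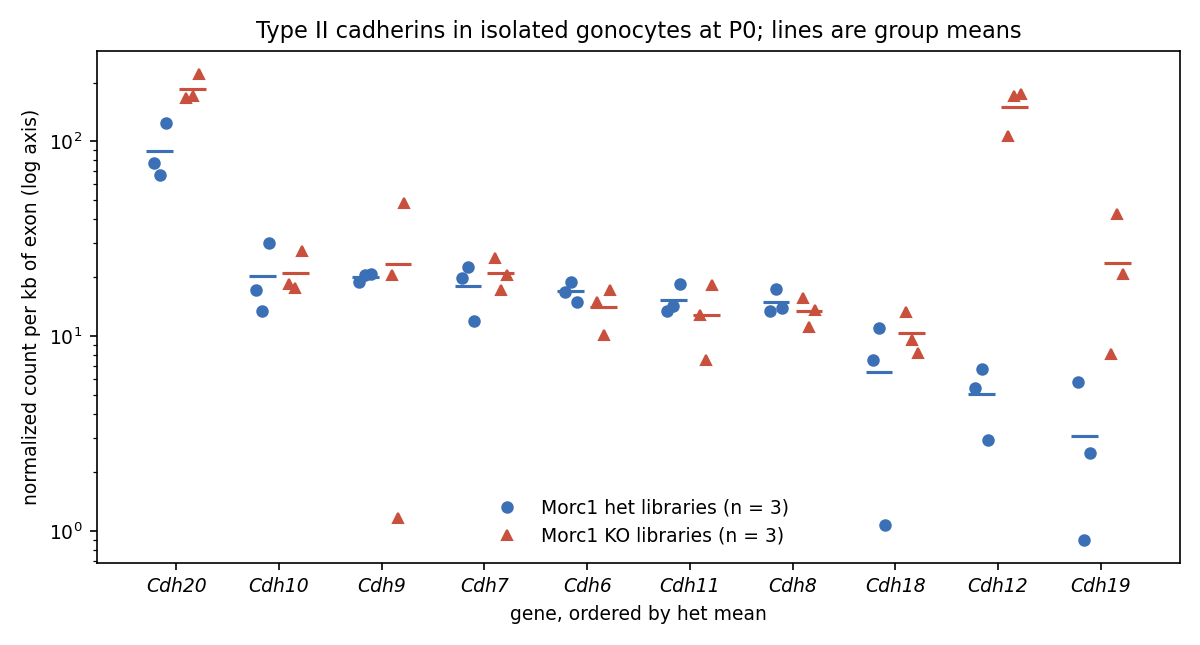
Normalized counts per kb of annotated exon (log axis) of the 10 type II cadherins in the 3 het libraries (circles) and the 3 KO libraries (triangles) at P0, with group means as lines and genes ordered by het mean. Cdh12 moves from 5.04 to 151 per kb, next to Cdh20, while the KO and het points of 7 of the 10 genes overlap.

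Levels of different genes were compared per kb of the union of their annotated exons. In het gonocytes Cdh20 led with 89.4 ± 30.6 normalized counts per kb (SD, n = 3), and its range did not overlap that of the next gene. Cdh10 (20.3), Cdh9 (20.1), Cdh7 (18.1), Cdh6 (17.0), Cdh11 (15.4) and Cdh8 (14.9) followed, each overlapping its neighbour in the order. Cdh18 (6.55), Cdh12 (5.04 ± 1.93) and Cdh19 (3.07) came last, overlapped each other from neighbour to neighbour, and lay below the range of Cdh8. In KO gonocytes Cdh20 had 186 ± 30.7 per kb and Cdh12 151 ± 38.9, with overlapping ranges. The next gene, Cdh19, had 23.8 ± 17.4 per kb and did not overlap Cdh12. Cdh12 thus ranked 10, 9 and 8 of 10 in het libraries 1 to 3, and 2, 1 and 2 in KO libraries 1 to 3. The other 7 genes lay between 10.3 (Cdh18) and 23.3 (Cdh9) per kb in KO. Per kb of the longest annotated transcript instead, the het means of Cdh10 and Cdh7 were 54.1 and 36.8, and that of Cdh12 was 5.29, still the second lowest.

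Summed over the 10 genes, the level per kb was 196, 193 and 241 in het libraries 1 to 3 and 401, 459 and 571 in KO libraries 1 to 3. Cdh12 made up 2.78%, 3.50% and 1.22% of this sum in het and 26.4%, 37.3% and 30.7% in KO. The share of Cdh20 was 39.4%, 34.8% and 51.5% in het and 41.4%, 37.2% and 38.8% in KO, so that the shares of Cdh20 overlapped while those of Cdh12 did not. Without Cdh12, the sum was 190, 186 and 238 per kb in het and 295, 288 and 396 in KO. These sums also did not overlap, and most of what remained of the difference was in Cdh20.

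Cdh20, which is expressed in neural crest derivatives and in the developing nervous system, was the most abundant of these cadherins in het. It had 309, 269 and 498 normalized counts in het libraries 1 to 3 and 665, 685 and 888 in KO libraries 1 to 3. Every KO library was above every het library, although KO library 1 was closer to het library 3 than to KO library 3. The ratio of the means was 2.08, from 359 ± 123 to 746 ± 123 (SD, n = 3), and the log2 difference was 1.09 (SE 0.29). Cdh20 was not called with limma.

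Cdh19, a cadherin of Schwann cell precursors and other neural crest derivatives, was low in het, with 24.8, 3.86 and 10.7 normalized counts in libraries 1 to 3. In KO libraries 1 to 3 it had 34.6, 182 and 89.2. The groups did not overlap, but KO library 1 was nearer to het library 1 than to any other KO library, and the KO values differed widely. The ratio of the means was 7.76 and the log2 difference was 2.88 (SE 0.77), and Cdh19 was not called with limma. Together with Cdh12 and Cdh20, it was among 3 of the 10 genes whose KO libraries all lay above the het libraries, which held for 7.17% of all tested genes, while 0 of the 10 lay wholly below, against 5.57%. With DESeq2 on the recovered reads, both Cdh19 and Cdh20 were called higher, as were 1.54% of all tested genes. Since the genes were chosen on this contrast, nothing is read from these calls. The markers of nerve and Schwann cells did not follow Cdh19: none of the 8 tested was called, their summed level was 2931 to 3260 in het and 2671 to 2977 in KO, and Sox10, a defining marker of Schwann cells and their precursors, had 91.8 to 140 normalized counts in het and 93.1 to 161 in KO.

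Cdh18, the neighbour of Cdh12 on chromosome 15 and like it known mainly from the brain, had 34.3, 50.2 and 4.88 normalized counts in het libraries 1 to 3. In KO libraries 1 to 3 it had 60.4, 43.4 and 37.2. The groups overlapped, with het library 3 far below the other 5 libraries. The log2 difference was 1.10 (SE 0.77), and without het library 3 it was 0.15.

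The other 6 cadherins also had overlapping groups, with log2 differences between -0.84 and 0.25. Cdh10, a brain cadherin, had 174, 135 and 302 normalized counts in het libraries 1 to 3 and 187, 178 and 273 in KO libraries 1 to 3 (log2 difference 0.12, SE 0.36). Cdh7, a cadherin of the nervous system, had 199, 226 and 120 in het and 251, 174 and 208 in KO (0.25, SE 0.33). In both genes the lowest of the 6 values was in a het library, and the groups overlapped widely. Cdh6, known as K-cadherin from kidney and also used in neural development, had 153, 171 and 136 in het libraries 1 to 3 and 135, 90.9 and 156 in KO libraries 1 to 3 (-0.29, SE 0.33). Cdh8, a neuronal cadherin, had 104, 134 and 108 in het and 122, 85.8 and 106 in KO (-0.15, SE 0.33). Cdh11, the cadherin of mesenchyme and osteoblasts, had 120, 127 and 164 in het and 114, 67.2 and 163 in KO (-0.33, SE 0.39). In each of Cdh6, Cdh8 and Cdh11 the lowest of the 6 values was in KO library 2.

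Cdh9, found on neurons and in kidney, was the least uniform of the 10 genes. Its het libraries 1 to 3 were close to each other, with 66.7, 72.4 and 74.1 normalized counts, while KO libraries 1 to 3 had 73.2, 4.13 and 170. KO library 2 fell below and KO library 3 rose above all het libraries, so that the ratio of the means (1.16) and the log2 difference (-0.84, SE 1.03) had opposite signs. Over all 10 genes the median log2 difference was 0.18, with 6 positive and 4 negative, and over the 9 genes without Cdh12 it was 0.12, against -0.02 over all tested genes.

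**Figure D2:**
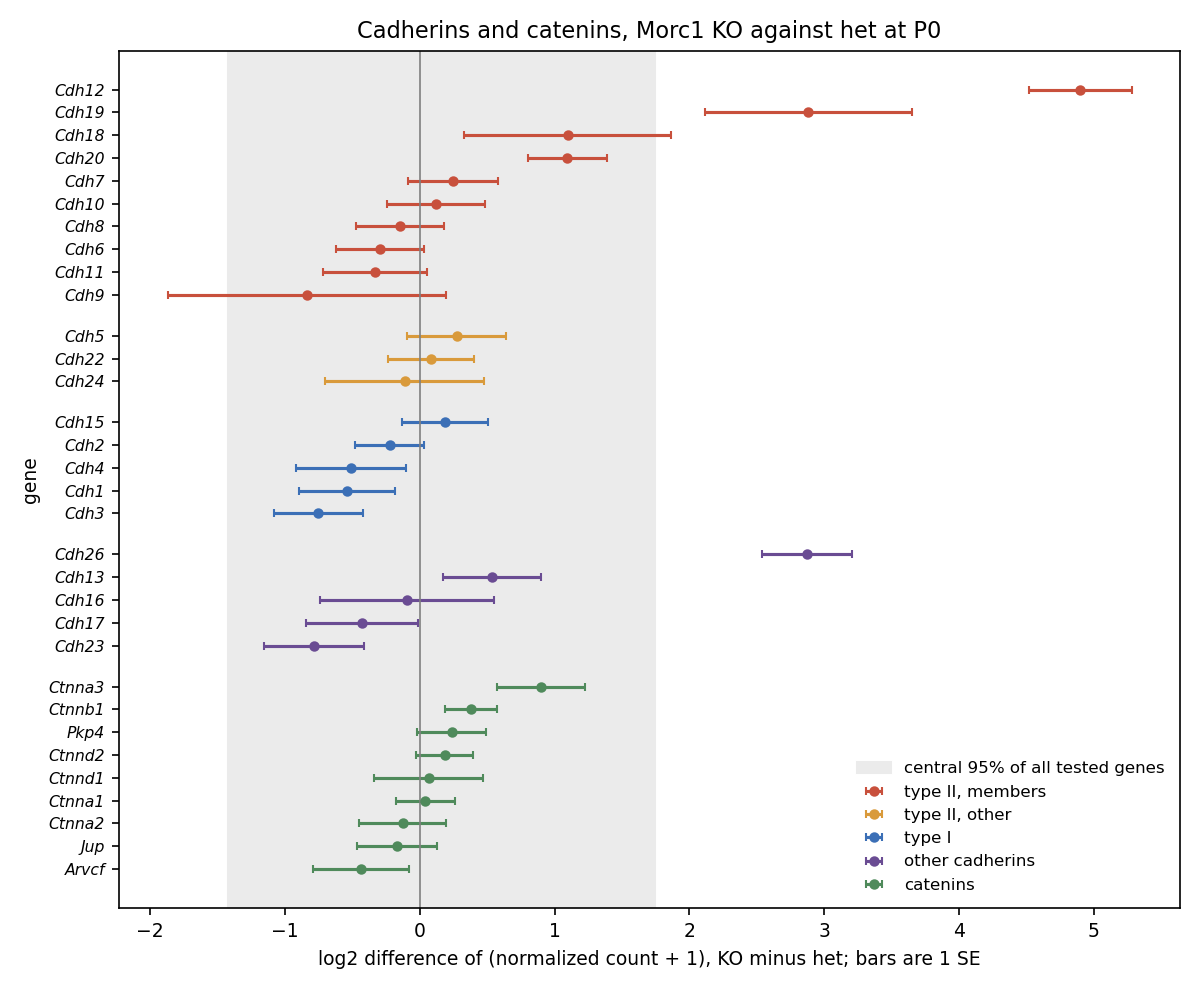
Differences between KO and het in log2(normalized count + 1) from limma, with bars of 1 SE, for the 10 type II cadherins, the other 3 type II cadherins, 5 type I cadherins, 5 further cadherins and 9 catenins. The grey band holds the central 95% of all tested genes, from -1.42 to 1.75, and Cdh12, Cdh19 and Cdh26 lie beyond it.

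The other cadherins and their cytoplasmic partners were taken from fixed lists. Over the 22 genes of these lists, limma, edgeR and DESeq2 each called 1 gene higher and 0 lower. Over all 26005 tested genes they called 0.431%, 0.465% and 1.54% higher, and 11, 8 and 65 genes lower. An unadjusted limma p under 0.05 was found for 1783 of the 26005 genes, and 48.4% of their log2 differences were positive. None of the 3 remaining type II cadherins was called or had an unadjusted p under 0.05, and their log2 differences were between -0.11 and 0.27. The endothelial cadherin Cdh5 had 234, 198 and 328 normalized counts in het libraries 1 to 3 and 210, 494 and 259 in KO libraries 1 to 3, with overlapping groups. Cdh22, which had the highest het level of the 3, had 359, 527 and 377 in het and 656, 325 and 396 in KO, and its groups overlapped too. Of the 5 type I cadherins 0 were called with limma in either direction, 1 had an unadjusted p under 0.05, and 4 of 5 log2 differences were negative, with a median of -0.51. Cdh15 (M-cadherin, known from muscle) had the highest het level of the type I list, 2687, 2766 and 1453 normalized counts in libraries 1 to 3, against 2267, 3632 and 1925 in KO, and the groups overlapped. Cdh3 (P-cadherin) had the lowest log2 difference of that list, -0.75 (SE 0.33, limma adjusted p 0.709), with 852, 599 and 915 normalized counts in het and 624, 547 and 285 in KO, and its groups overlapped. For Cdh1 the log2 difference was -0.54 and for Cdh2 -0.22, and neither was called.

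Of 5 further cadherins, limma called 1 higher and 0 lower, against 0.431% and 0.0423% of all tested genes. The gene called was Cdh26, a cadherin of epithelia. It had 121, 74.4 and 63.4 normalized counts in het libraries 1 to 3 and 509, 574 and 797 in KO libraries 1 to 3. The groups were far apart, with means of 86.3 ± 30.6 and 627 ± 151 (SD, n = 3), a ratio of 7.26 and a log2 difference of 2.87 (SE 0.33, limma adjusted p 0.00760). The limma call was lost without KO replicate 3. Cdh17, known from intestine and liver, had the highest het level of this list, 1161, 1396 and 662 normalized counts in libraries 1 to 3, against 1006, 398 and 1095 in KO. Its groups overlapped, and Cdh13, Cdh16, Cdh17 and Cdh23 had log2 differences between -0.79 and 0.54 and were not called. Of the 9 catenins and related armadillo proteins, 0 were called with limma in either direction, 1 had an unadjusted p under 0.05, and their median log2 difference was 0.07. Such an unadjusted limma p was found for 1783 of the 26005 tested genes. Ctnnb1 (β-catenin), which binds cadherin tails and had the highest level of the list, had 6764, 8164 and 8030 normalized counts in het and 8658, 10191 and 11103 in KO. Its groups did not overlap, but the log2 difference of 0.38 (SE 0.19) had a limma adjusted p of 0.799. Ctnna3 (αT-catenin) had 235, 383 and 276 in het, against 477, 412 and 824 in KO, the largest difference of the list at 0.90 (SE 0.33, limma adjusted p 0.566), and its groups did not overlap.

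The pattern of Cdh12 across the 6 libraries was compared with that of the other 26004 tested genes by Pearson's r of log2(normalized count + 1), as a description over libraries that share a genotype difference. The genes most like it were Cyp20a1 (r = 0.996), Vrtn (0.995), Olfr559 (0.994), Xlr3e-ps (0.993) and Patj (0.992). Cyp20a1, a cytochrome P450 gene, had 528, 546 and 475 normalized counts in het libraries 1 to 3 and 1564, 1889 and 2108 in KO libraries 1 to 3. Its 3 KO values lay well above its het values. Olfr559, an olfactory receptor gene, had 0, 0.966 and 0 in het and 51.5, 72.3 and 75.4 in KO. Vrtn, a gene named for its link to vertebral number, had 81.1, 90.8 and 76.1 in het, against 169, 201 and 181 in KO. The pseudogene Xlr3e-ps had 15.3, 19.3 and 12.7 in het, against 52.4, 53.7 and 67.6 in KO. Patj, a cell polarity scaffold, had 1280, 1423 and 1000 in het and 3633, 3492 and 3595 in KO. These genes were picked for their likeness to Cdh12 over the same libraries. Their KO values above all het values follow from this choice, and nothing is read from them. Cyp20a1, Olfr559 and Patj were called higher while Vrtn and Xlr3e-ps were not. In all, 208 genes had r above 0.95, and 66 of them were called higher. Over all tested genes 0.431% were called higher, and the choice by r itself raises the share. Among the cadherins, r with Cdh12 was 0.834 for Cdh19 and 0.817 for Cdh20, and between -0.473 (Cdh6) and 0.582 (Cdh18) for the others.

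Cdh12 is a very long gene on the plus strand of chromosome 15, from 20449265 to 21589533 (GRCm38, GENCODE M21), and spans 1140.27 kb. Its 3 annotated transcripts fall into 2 parts. Cdh12-202 starts at 20449265, has 4 exons with 404 bp in all and no coding sequence, and ends at 21111440. Cdh12-203 starts at 21110125 with 13 exons and Cdh12-201 at 21111452 with 12, and both hold a coding sequence of 2382 bp and end near 21589533. The deposited gene values do not separate these transcripts, so it is not known which of them the KO reads came from.

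The window that RefSeq places at the start of Cdh12 belongs to the second of these parts. Its bases before the first exon in the window are shown, 5′ to 3′ on the plus strand. They precede the start of Cdh12-201, but lie in introns of Cdh12-202 and Cdh12-203 and end where an exon of Cdh12-202 begins. The bases before the annotated start of Cdh20, the other abundant member in KO, are given as well and are of a different kind, since no exon of Cdh20 lies before them. Capitals mark each CG dinucleotide, the site of DNA methylation in mammals (RefSeq, GRCm38.p6; chr15:21111202-21111333 for Cdh12 and chr1:104768270-104768519 for Cdh20).
Cdh12: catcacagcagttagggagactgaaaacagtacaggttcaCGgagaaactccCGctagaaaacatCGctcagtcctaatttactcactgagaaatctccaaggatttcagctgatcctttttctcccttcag
Cdh20: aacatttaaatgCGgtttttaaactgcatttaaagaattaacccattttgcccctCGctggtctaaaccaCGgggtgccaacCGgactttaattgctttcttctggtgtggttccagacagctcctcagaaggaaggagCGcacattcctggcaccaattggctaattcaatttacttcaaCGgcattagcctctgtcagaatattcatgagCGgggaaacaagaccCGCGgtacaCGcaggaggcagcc
The stretch shown for Cdh12 held 3 CG in 132 bases and that for Cdh20 held 10 in 250 bases. In the full windows of 300 bases, Cdh12 had 9 CG and Cdh20 had 18, and 56.5% and 71.9% of the 32851 windows of this length had at most as many. At least 1 CG was found in 94.6% of all windows, whose median was 7. The table had windows for 8 of the 10 genes.

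Tested genes that overlap Cdh12 were Gm49685 and Acot10. Gm49685, which is annotated on the plus strand from 20449119 to 20979940 and shares exon bases with Cdh12-202, had 11.4, 14.5 and 1.95 normalized counts in het libraries 1 to 3 and 123, 126 and 67.6 in KO libraries 1 to 3. All KO values were above all het values, with a log2 difference of 3.63 (SE 0.69) and a limma adjusted p of 0.0632, so that it was not called. Reads from shared exons cannot be assigned to Cdh12 or Gm49685. Acot10, a mitochondrial acyl-CoA thioesterase gene that lies inside Cdh12 on the opposite strand, had 54.4, 60.9 and 32.2 in het and 41.6, 23.8 and 63.7 in KO, with overlapping groups (log2 difference -0.25, SE 0.51, limma adjusted p 0.961).

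Outside the gene, the nearest tested genes were far away: Gm8341 at 992.913 kb before its start and Cdh18 at 959.489 kb after its end. Gm8341, a processed pseudogene, had 117, 33.8 and 31.2 normalized counts in het libraries 1 to 3 and 66.3, 21.7 and 22.5 in KO libraries 1 to 3, with overlapping groups (log2 difference -0.63, SE 0.65, limma adjusted p 0.917). On chromosome 15 the 5 genes Cdh6, Cdh9, Cdh10, Cdh12 and Cdh18 follow each other in a stretch of 10.4 Mb that holds 70 annotated genes, of which 6 are protein-coding. The sixth is Acot10. Of the 10 genes tested in this stretch, Cdh12 was the only one called. Of the 100 TE copies tested in the stretch, which include those around Cdh12 and copies that reached the mean for a test through their KO values, 47 were called higher in KO and 0 lower, and nothing is read from this share. Over the whole TE table, 49781 copies with a mean of at least 10 normalized counts were tested in the same way, and 15.6% were called higher and 0.735% lower. With quantile normalization, 5780 copies were called higher and 1034 lower, in place of 7745 and 366.

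The 245 TE copies around Cdh12 were listed with coordinates and strand and without a family name. Of these, 241 lay inside the gene, all of them in introns and 0 on exons, and 4 lay after its end. Most were at very low levels, 103 were without reads in all het libraries, and 30 reached the mean of 10 that was required for a test. Of the 30, 15 (50%) were called higher and 0 lower, against 15.6% and 0.735% of all tested copies. In 22 of the 30 all KO libraries lay above all het libraries, which held for 22.8% of all tested copies. In 16 of the 30 the het libraries held at most 3 reads each. These copies, and any other with a het mean under 10, could pass the filter only through their KO values. Nothing is read from these shares.

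Summed over all 245 listed copies, tested or not, the normalized counts were 281, 292 and 635 in het libraries 1 to 3 and 2081, 4733 and 1647 in KO libraries 1 to 3. All KO sums lay above all het sums, het library 3 was the highest of its group, and KO library 2 stood above the other KO libraries. The means were 403 ± 202 and 2820 ± 1671 (SD, n = 3), a ratio of 7.01. The TE values were scaled on TE reads, which were 6.54, 6.02 and 8.71 per 100 gene reads in het libraries 1 to 3 and 8.95, 13.1 and 9.41 in KO libraries 1 to 3. With the scaling factors of the gene table the ratio was 9.0. The median log2 difference of all tested copies was 0.03, 0.38 with the factors of the gene table and -0.41 with quantile normalization. Without KO library 2 the ratio of the sums, on the scale of the TE table, was 4.63.

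The copies on either side of the limits of the window had few reads. The last copy before it (20398385 to 20398971) had 0, 0 and 14.4 normalized counts in het libraries 1 to 3 and 3.82, 5.42 and 7.70 in KO libraries 1 to 3. The first inside it, at 20462654, had 3.16, 2.24 and 0 in het, against 0, 6.19 and 0 in KO. The last inside, at 21629823, had 0, 8.97 and 0 in het and 1.91, 0 and 1.71 in KO, and the first after it, at 21745345, had reads in KO library 2 alone. All 4 stayed under the mean of 10 and were not tested. The only tested copy after the end of the gene (21614415 to 21615505) had 20.04, 20.2 and 13.4 in het and 16.2, 3.87 and 35.9 in KO, with overlapping groups. Inside the gene the groups overlapped in 7 of 29 tested copies.

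**Figure D3:**
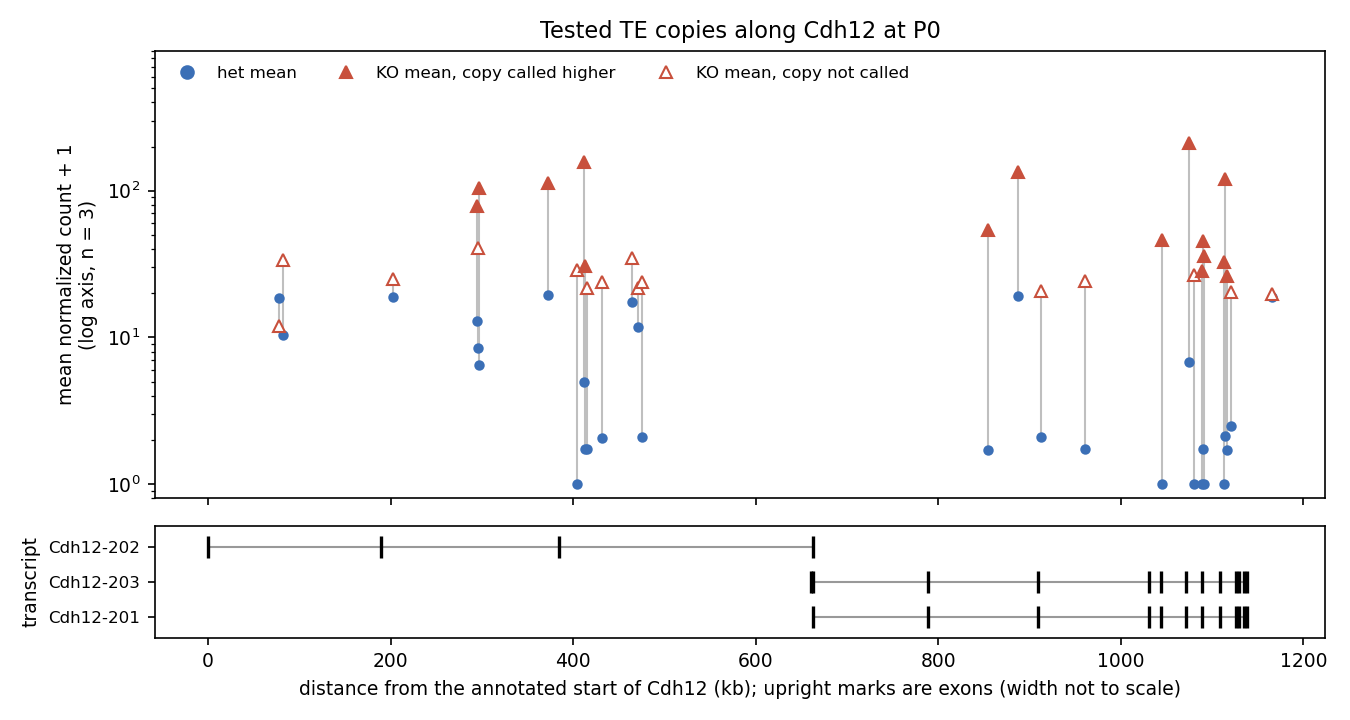
Mean normalized count + 1 (log axis, n = 3) of the 30 tested TE copies against their distance in kb from the annotated start of Cdh12, with het means as circles and KO means as triangles, filled where the copy was called higher. Below, upright marks show the exons of the 3 transcripts; called copies lie on both sides of a gap of 379 kb without tested copies that holds the start of the coding transcripts.

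Before the start of Cdh12-203, where the gene holds only the non-coding transcript, 123 copies were listed, 15 were tested and 5 were called higher. Their sums were 184, 186 and 478 normalized counts in het libraries 1 to 3 and 1061, 1982 and 912 in KO libraries 1 to 3, a ratio of 4.66, and of 7.13 without het library 3. From that start on, 118 copies were listed, 14 were tested and 10 were called higher. There the sums were 68.6, 71.8 and 142 in het, against 998, 2740 and 681 in KO, a ratio of 15.7, and of 8.92 without KO library 2. In both parts the KO libraries lay above the het libraries. In 5 of the 15 and 11 of the 14 tested copies the het libraries held at most 3 reads each. These copies, and any other with a het mean under 10, could pass the filter only through their KO values. Over all tested copies 15.6% were called higher, and nothing is read from the counts called in the parts. The difference between the parts was not tested.

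Around the start of the coding transcripts themselves the table held little. From 20925310 to 21304027, a stretch of 379 kb, 54 copies were listed and 0 reached a mean of 10. Their sums were 28.5, 49.4 and 67.1 normalized counts in het libraries 1 to 3 and 210, 515 and 155 in KO libraries 1 to 3, so that the KO libraries were higher here too. Within 10 kb of the start of Cdh12-203, 1 copy was listed, with 10 reads over the het and 16 over the KO libraries. The nearest copies called higher ended 247 kb before that start (20862533 to 20863044) and began 194 kb after it (21304028 to 21308894). The first of them had 0, 2.24 and 0 normalized counts in het libraries 1 to 3 and 13.4, 32.5 and 43.6 in KO libraries 1 to 3, and the other had 2.11, 0 and 0 in het and 23.8, 122 and 14.5 in KO. No copy was listed within 10 kb of the start of Cdh12-202, and the nearest copy called higher lay 295 kb after it.

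The 15 called copies were 84 to 6479 bp long, with log2 differences from 2.56 to 6.12 and KO means from 25.3 to 211 normalized counts. Against the strand of Cdh12, 11 of them were on the opposite strand and 4 on the same strand, a share of 73.3% opposite, and 64.5% of the 245 listed copies were opposite. In 9 of the 15 the het libraries held at most 3 reads each, and in 4 of these no het library had a read. The counting of the strand is not given in the sources used here, so reads on either strand of an intron may have been counted for a copy. Reads from unspliced Cdh12 RNA and reads from TE transcripts cannot be told apart in these values.

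The copy with the highest KO mean was on the minus strand at 21524308 to 21527501 (3194 bp), 3.86 kb after an exon of the coding part. It had 2.11, 0 and 15.3 normalized counts in het libraries 1 to 3 and 60.1, 535 and 37.6 in KO libraries 1 to 3, and KO library 2 held most of it. The ratio of the means was 36.3 and the log2 difference 4.87 (SE 1.10). Without KO library 2 the ratio was 8.40 and the copy was not called, and without het library 3 the ratio was 199.9. The copy at 20861362 to 20862112 on the plus strand (751 bp) had 4.22, 0 and 7.67 in het and 95.4, 245 and 128 in KO, with a ratio of 39.5, and of 74.1 without het library 3. Here too KO library 2 was highest, but all KO libraries were far above het.

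The longest called copy, at 21336096 to 21342574 on the minus strand (6479 bp), had 17.9, 13.5 and 23.0 normalized counts in het libraries 1 to 3 and 177, 142 and 82.1 in KO libraries 1 to 3. It had reads in every het library, and the ratio was 7.39 (log2 difference 2.78, SE 0.45). The copy at 20821451 to 20827800, also on the minus strand (6350 bp), ends 5.50 kb before the third exon of Cdh12-202 and had 13.7, 16.8 and 24.9 in het and 134, 102 and 100 in KO, a ratio of 6.05. These were the only called copies over 6000 bp, the length range of nearly complete elements of some TE families, and 2 others of that length in the gene, with log2 differences of 1.64 and 0.96, were not called. Among all tested copies over 6000 bp, 61.2% were called higher. The copy at 21562973 to 21564932 on the plus strand (1960 bp) had the largest log2 difference, 6.12 (SE 0.76), with 0, 3.37 and 0 in het and 176, 93.7 and 86.4 in KO. Taking 3 reads as the level of each het library, the KO mean was at least 37.8-fold higher. The copy at 20745917 to 20746307 (391 bp) had KO libraries close to each other, with 3.16, 5.61 and 7.67 in het and 114, 96.0 and 103 in KO, a ratio of 19.0. The other 7 called copies began at 20744223, 21494714, 21538560, 21538864, 21540203, 21562641 and 21565547, with KO means from 25.3 to 77.2. The 3 of them that began between 21538560 and 21540203 lay 0.89 to 2.53 kb after an exon of the coding part. Whether copies that lie next to each other, such as those at 21562641 and 21562973, are pieces of a single element was not tested.

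KO library 2 was the highest KO library in 9 of the 15 called copies. In the sums it stood 2.01-fold above the mean of KO libraries 1 and 3 before the start of Cdh12-203 and 3.26-fold above it from that start on. Over all 7745 copies called higher in the table the median of that ratio was 1.10, and KO library 2 was highest in 41.7%. The count of Cdh12 itself did not follow this, since KO library 3 (1104) was as high as KO library 2 (1079). Without KO library 2, 6 of the window's copies were called, and without KO library 1, 8 were, while Cdh12 was called in each case.

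**Figure D4:**
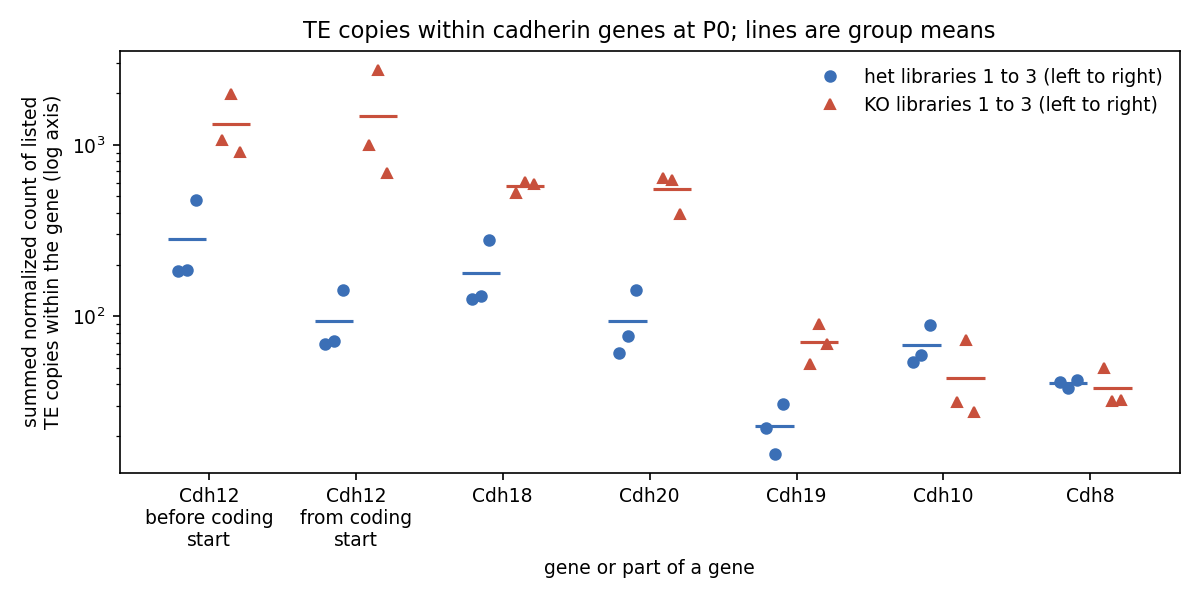
Summed normalized counts (log axis) of all TE copies listed within Cdh12, before and from the start of Cdh12-203, and within 5 other type II cadherins, for het libraries 1 to 3 (circles) and KO libraries 1 to 3 (triangles), with group means as lines. KO points lie above het points in Cdh12, Cdh18, Cdh20 and Cdh19, and overlap with them in Cdh10 and Cdh8.

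TE copies inside the other cadherins are given beside those of Cdh12. Here too copies could reach the mean for a test through their KO values alone. Over all tested copies 15.6% were called higher, and nothing is read from the counts called per gene. Cdh18, which at 925.397 kb is nearly as long as Cdh12, held 51 listed copies, of which 8 were tested and 6 called higher, all on the strand opposite to the gene. Their sums were 126, 130 and 280 normalized counts in het libraries 1 to 3 and 525, 605 and 589 in KO libraries 1 to 3, a ratio of 3.21, with no overlap. The copy with the highest KO mean in Cdh18, at 22700419 to 22703173 on chromosome 15, had 6.33, 8.97 and 0 in het and 94.4, 93.7 and 140 in KO (log2 difference 4.70, SE 0.80). The ratio was 21.5, and 34.6 without het library 2. In Cdh18, copies inside the gene were called while the groups of the gene's own counts overlapped. In Cdh12, copies and gene count were both called. This difference between the genes was not tested.

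Cdh20 held 28 listed copies, 3 of them tested and 1 called higher. This copy, at 104962619 to 104969597 on chromosome 1 (6979 bp, opposite strand, intronic), had 8.44, 8.97 and 34.5 normalized counts in het libraries 1 to 3 and 535, 512 and 223 in KO libraries 1 to 3. All KO values were far above het, with a ratio of 24.5, or 48.7 without het library 3, and a log2 difference of 4.72 (SE 0.57), and the KO mean of 424 was above that of every copy in Cdh12. Cdh26 likewise held an intronic copy on the opposite strand, at 178442269 to 178449053 on chromosome 2 (6785 bp), with 25.3, 14.6 and 17.3 in het and 352, 393 and 200 in KO, a ratio of 16.5. In Cdh19, 9 copies were listed, 1 was tested and 0 were called, and the sums were 22.1, 15.7 and 30.7 in het, against 52.5, 89.8 and 68.4 in KO.

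Cdh8 held 13 listed copies with 1 tested and 0 called, and Cdh10 (18), Cdh7 (5), Cdh6 (4) and Cdh9 (3) held listed copies of which 0 were tested. Within Cdh11, 0 copies were listed. Copies over 6000 bp were listed in Cdh12 (4, with 2 called higher), Cdh18 (5, with 3) and Cdh20 (1, called), all of them on the strand opposite to the gene, and in 0 of the other 7 cadherins. Over all tested copies of that length 61.2% were called higher.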

How the data were processed

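Per the labels' protocols, RNA from P0 gonocytes was amplified as cDNA with a kit for very small inputs and sequenced after mRNA library preparation. The submitters' processing notes name bcl2fastq 2.20, cutadapt 1.18, HISAT2 2.1.0, featureCounts 1.5.2 and DESeq2 1.26.0, and the builds mm10 and GRCm38. Strand handling, the repeat annotation and the treatment of reads with several matches are not given in the sources used here. The gene table and the TE table hold a signal, read counts that the authors divided by 1 size factor per library. Reads were recovered from the deposited values, of which 100% were whole multiples of 1 step per column within a tolerance of 1e-04. The 6 P0 libraries were analysed, and the P3 samples of the 12 labelled samples were not analysed here.

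Genes were matched to GENCODE M21 (35560 of 35666). Features with a mean of at least 10 were fitted with limma 3.58.1 (R 4.3.3, lmFit and eBayes with trend, two-sided) on log2(value + 1) without covariates, with Benjamini-Hochberg adjustment over all tested features and a threshold of 0.05. A count test had been intended for the TE table if it held raw counts, and limma was used because it does not. In simulated data, limma recovered 97.9% of 193 genes and 86.7% of 166 TE copies changed 4-fold. Of its calls there, 5.97% for genes and 1.37% for TE copies were false. The simulated spread between libraries was fixed at 1 value for all features and not estimated from these data. These shares therefore do not give the power of the tests here. A het group with at most 3 reads in each library was treated as being at the floor, which covers counting error only. edgeR 4.0.16 and DESeq2 1.42.0 on recovered reads, other pseudocounts, filters and scalings, and leaving out each library were tried as alternatives. The members, the gene lists and the tests were chosen with earlier results of these data known. Full values were given for the 10 members, for the list genes with the highest het level or the largest difference, for the 5 genes most correlated with Cdh12, for the nearest tested gene on either side and the tested genes that overlap it and for the TE copies with the highest KO means, the longest ones and those nearest to a transcript start. Protein alignments were replaced by alignments of coding sequences (Biopython 1.88), and TE sequences were not used here.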

Additional observations from a re-analysis of the deposited data

How the results depend on the processing

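Cdh12 was called higher in all 16 alternatives, with log2 differences from 4.53 to 5.14, and from 4.56 to 5.14 when 1 library was left out. The number of all genes called higher, 112, was 400 with DESeq2, 70 with a pseudocount of 0.1, 177 with a pseudocount of 10, and 17 to 105 when 1 library was left out (17 without KO replicate 3 and 23 without KO replicate 1). The number called lower, 11, was 65 with DESeq2, 3 without trend, 5 with a pseudocount of 0.1, and 1 to 7 when 1 library was left out. DESeq2 called 1.54% of all tested genes higher, among them 2 of the 9 other type II cadherins (Cdh19 and Cdh20). In the remaining alternatives 0 of the 9 were called higher. Over the alternatives, log2 differences ranged from 2.14 to 3.50 for Cdh19 and from 0.91 to 1.36 for Cdh20. The sign changed for Cdh9 in 3 of 16 alternatives, for Cdh10 in 2 and for Cdh7 and Cdh11 in 1 each. The single gene called in the other cadherin and catenin lists, Cdh26, was lost without KO replicate 3, so that leaving out 1 library gave 0 to 1. Gm49685 was called with DESeq2, a pseudocount of 10 and quantile normalization. The number of TE copies called higher in the Cdh12 window, 15 of 30 tested, was 6 of 6 tested with a mean of at least 50, 28 of 245 with no filter (15 of them shared with the 15), and 6 to 16 when 1 library was left out (6 of 19 tested without KO replicate 2, and 8 without KO replicate 1). The 6 copies that reached a mean of 50 had het means below it and passed only through their KO values. The shares of all copies called under these filters are not given here, and nothing is read from these counts. In 210 refits of single copies, 189 calls held, 21 were lost and 0 changed sign. Of the 15 copies, 6 were called in all of their refits. Alternatives in which a copy missed the mean for a test were not counted. Few reads limit the het values of Cdh12, Cdh18, Cdh19 and most TE copies.

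Same-numbered het and KO libraries did not deviate together (r = 0.138, -0.163 and -0.0438), so the numbers were not taken as pairs. With the replicate block, limma called 64 genes higher and 5 lower, and edgeR 38 and 0. Cdh12 was called in both (limma log2 difference 4.90), Cdh26 was lost with edgeR and its block (0 genes of those lists), and 14 TE copies of the window were called, 13 of them among the 15.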
